A study of Xenopus tropicalis with 11 samples.

Results

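The bins described here lie on the distal arms of chromosomes 1, 2, 4, 5, 6 and 7 of *X. tropicalis*. A bin is a stretch of 10 kb in which sequenced reads were counted, and it belongs to the distal arms if its middle is over 5 Mb and at most 30 Mb from the nearer end of its chromosome. The rule uses position alone and no measured value. It takes 30000 of the 145051 bins of the count table, which is 20.7% of the 144914 bins on the 10 chromosomes, with 2500 bins on each of 12 arms. The arm that begins at the first base of a chromosome is called the start arm, and the other one the end arm.

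Native chromatin of XTN-6 cells, a cell line made from embryos of the inbred Nigerian strain, was digested with micrococcal nuclease (MNase) to single nucleosomes and pulled down without crosslinking. All libraries are wild type, and none was treated. The groups were Cenp-a (replicates 1, 2 and 3), the bulk histones (H4 in replicate 1, H3 in replicates 2 and 3, together called H3/H4), rabbit IgG (replicates 2 and 3) and input (replicates 1, 2 and 3), which is precleared chromatin that was not pulled down. The antibody against Cenp-a was raised against the *X. laevis* protein. Because H4 was used in replicate 1 only, the histone antibody and the replicate cannot be told apart in H3/H4. The labels name both XTN-6 cells and whole tadpoles at stage NF 20 as the material, and counts of chromatin fragments cannot check the cell type. The study itself names XTN-6 cells as the material and embryos of about stage 20 as the origin of that line. The labels call the replicates biological, whereas the study's methods call them technical, so that p-values measure only the spread between these libraries.

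Cenp-a is the variant of histone H3 that marks the centromere. It replaces H3 in some nucleosomes of the centromeric chromatin, where the kinetochore forms, and is scarce elsewhere. The chromosomes with long arms considered here carry their centromeres well away from the ends, and their distal arms are thus chromatin outside the centromere. By the study's definition, these distal arms are part of the extended subtelomeres, the long terminal regions with high recombination. H3 and H4 are part of nearly all nucleosomes, so that their pull-down stands for bulk chromatin, and rabbit IgG measures what a pull-down takes along without a specific target.

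The libraries held between 4053600 (IgG replicate 2) and 229872947 counts (Cenp-a replicate 3). The median distal arm bin held between 23 counts in IgG replicate 2 and 1264 counts in Cenp-a replicate 3, and between 37 and 104 of the 30000 bins held no count in a library. The distal arms took 17.7%, 18.0% and 17.5% of the counts on chromosomes in Cenp-a replicates 1, 2 and 3, against 19.0%, 18.4% and 18.6% in the inputs. H3/H4 gave 17.9% to 18.3% and IgG 18.7% and 18.6%. In each replicate the Cenp-a share lay below the input share, by the least in replicate 2.

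Cenp-a over input was lowest in the bins nearest to the chromosome end and higher with distance from it. The ratio of CPM, the count of a bin scaled to a common library total on the chromosomes, with 0.1 CPM added to both values, was taken for each bin between the libraries of the same replicate. Over the bins 5 to 10 Mb from the end its median was -0.215, -0.077 and -0.169 on the log2 scale in replicates 1, 2 and 3, a mean of -0.154 ± 0.070 (SD, n = 3), which is 10.1% below equal levels. The mean was -0.119 ± 0.051 at 10 to 15 Mb, -0.063 ± 0.019 at 15 to 20 Mb and -0.022 ± 0.0085 at 20 to 25 Mb (SD, n = 3 each). Innermost, at 25 to 30 Mb, the replicates gave 0.0034, -0.012 and -0.0059, a mean of -0.0050 ± 0.0079 (SD, n = 3). In all 3 replicates the deficit of Cenp-a was largest in the outer band and nearly gone in the innermost one, and it was smallest in replicate 2. The bins within a band overlap widely, since at 5 to 10 Mb the middle 50% of the bins of replicate 1 ran from -0.398 to -0.020.

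**Figure D1:**
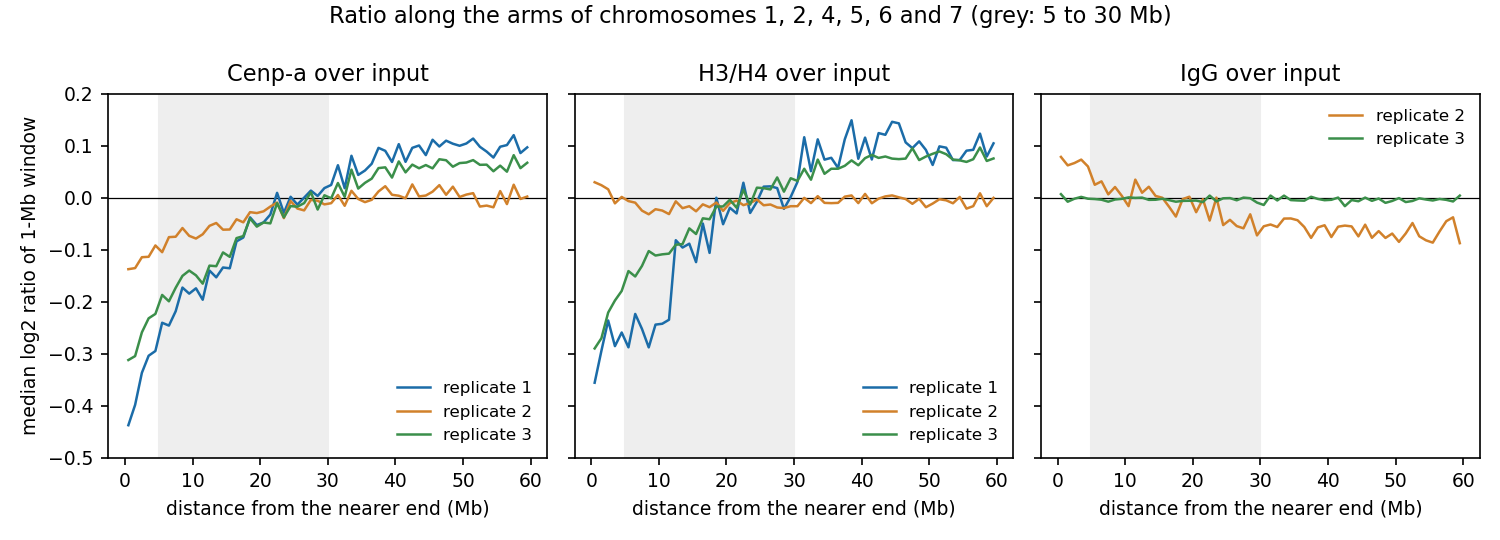
Median log2 ratio (y axis, log2 units) in windows of 1 Mb by distance from the nearer end (x axis, Mb) over the arms of chromosomes 1, 2, 4, 5, 6 and 7, with 1 line per replicate and 1 panel each for Cenp-a over input, H3/H4 over input and IgG over input; the grey band marks the distal arms from 5 to 30 Mb. Within it Cenp-a over input climbs in all 3 replicates, from a mean of -0.154 ± 0.070 in the outer 5 Mb to -0.0050 ± 0.0079 in the inner 5 Mb (SD, n = 3), while IgG over input is flat in replicate 3 and declines in replicate 2.

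The slope over the 25 distance windows of 1 Mb was 0.116, 0.035 and 0.087 log2 units per 10 Mb in replicates 1, 2 and 3, averaging 0.079 ± 0.041 (SD, n = 3). All 3 slopes were positive, and the exact two-sided sign-flip test over the replicates gave p = 0.25, the smallest value that 3 replicates allow. No step marked either limit of the zone. The window of 4 to 5 Mb, just outside, had a median of -0.203 ± 0.103 and the window of 5 to 6 Mb, just inside, -0.177 ± 0.068, while the windows of 29 to 30 Mb (inside) and 30 to 31 Mb (outside) had 0.0032 ± 0.016 and 0.0041 ± 0.018 (SD, n = 3 each).

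Bulk histones showed a similar gradient against input in 2 of the 3 replicates. H3/H4 over input was -0.258, -0.019 and -0.128 at 5 to 10 Mb in replicates 1, 2 and 3, which averages to -0.135 ± 0.120, against 0.0049 ± 0.020 at 25 to 30 Mb (SD, n = 3 each). Its slopes were 0.134 (H4), 0.0029 (H3) and 0.079 (H3) per 10 Mb, with a mean of 0.072 ± 0.066 (SD, n = 3; exact two-sided sign-flip p = 0.25), or between 0.041 without replicate 1 and 0.106 without replicate 2. The ratio of H4 to input in replicate 1 stepped up between 11 to 12 Mb (-0.235) and 12 to 13 Mb (-0.082). The ratio of H3 to input in replicate 2 was almost level. The replicate with the smallest slope of Cenp-a over input is also the one with the smallest slope of H3/H4 over input. Both ratios are taken over the same input libraries.

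Cenp-a over H3/H4 had no gradient larger than the spread between replicates. The slopes were -0.015, 0.030 and 0.0068 log2 units per 10 Mb in replicates 1, 2 and 3, a mean of 0.0074 ± 0.023 (SD, n = 3; exact two-sided sign-flip p = 0.75). Its direction turned without replicate 2 (mean slope -0.0041), with bins that overlap no gene alone (-0.0019) and over 5 to 20 Mb (-0.0046). The band medians lay between -0.034 ± 0.012 at 10 to 15 Mb and -0.011 ± 0.014 at 25 to 30 Mb, with -0.020 ± 0.052 at 5 to 10 Mb (SD, n = 3 each). There replicate 1, in which the reference is H4, was above 0 (0.038) and the other two replicates, with H3, were below it.

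IgG over input did not follow Cenp-a. Its slopes were -0.034 and -0.00028 per 10 Mb in replicates 2 and 3 (mean -0.017 ± 0.024, SD, n = 2), with an exact sign-flip p = 0.5, the smallest that 2 replicates allow. At 5 to 10 Mb the medians were 0.013 and -0.0041 in replicates 2 and 3, and at 25 to 30 Mb they were -0.051 and -0.0030. In replicate 2, in which both Cenp-a and IgG are shallow libraries, the IgG slope was as large as the Cenp-a slope and of the opposite sign.

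Read by library, the inputs sloped more than the Cenp-a libraries in each replicate, by little in replicate 3. Relative to the median bin of its library, the input level was lower further from the end in all 3 libraries, with slopes of -0.103, -0.034 and -0.047 log2 units per 10 Mb in replicates 1, 2 and 3 (mean -0.061 ± 0.037, SD, n = 3; exact two-sided sign-flip p = 0.25). This was not so on every arm, since the input slope was negative on 11, 9 and 9 of the 12 arms in replicates 1, 2 and 3. Mean input slopes ran from -0.509 ± 0.042 on the end arm of chromosome 2 to 0.163 ± 0.021 on that of chromosome 5 (SD, n = 3 each). Input replicate 1 had a level of 0.098 at 5 to 10 Mb and of -0.114 at 25 to 30 Mb. The Cenp-a libraries were flatter, at 0.012, -0.0051 and 0.038 per 10 Mb, and H4 replicate 1, H3 replicate 2 and H3 replicate 3 had slopes of 0.037, -0.026 and 0.029. The IgG libraries, at -0.062 and -0.046, resembled the inputs. The order of the replicates by the input slope, steepest in replicate 1 and shallowest in replicate 2, is that of the Cenp-a over input slopes. Since the input is the denominator of that ratio, the shared order is partly built in, and no conclusion is drawn from it. What made the inputs differ was not tested.

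The gradient of Cenp-a over input was present on each arm. The slope was positive and the median ratio below 0 on 12 of 12 arms in each of the 3 replicates. The slopes of single arms ran between 0.088 and 0.141 in replicate 1, between 0.010 and 0.055 in replicate 2 and between 0.060 and 0.113 in replicate 3, so that the ranges of replicates 1 and 2 do not overlap. Averaged over replicates, the start arm of chromosome 6 had the steepest slope, 0.100 ± 0.048 per 10 Mb, and the end arm of chromosome 4 the shallowest, 0.053 ± 0.039 (SD, n = 3 each). The former was steeper in each replicate, at 0.141, 0.047 and 0.113 against 0.088, 0.010 and 0.060 in replicates 1, 2 and 3. They were picked as the extremes of the 12 arms, so the difference was not tested. Median ratios ran from -0.095 ± 0.029 on the end arm of chromosome 5 to -0.048 ± 0.006 on the start arm of chromosome 5.

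The other ratios were less uniform in sign across arms. H3/H4 over input had a positive slope on 11, 8 and 12 of the 12 arms in replicates 1, 2 and 3, and its mean slope was least on the start arm of chromosome 4, at 0.010 ± 0.050 (SD, n = 3). The slopes of H4 over input, in replicate 1, ranged widest, between -0.021 and 0.207. Cenp-a over H3/H4 was positive on 4, 12 and 12 arms, and IgG over input on 1 and 4 arms in replicates 2 and 3.

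**Figure D2:**
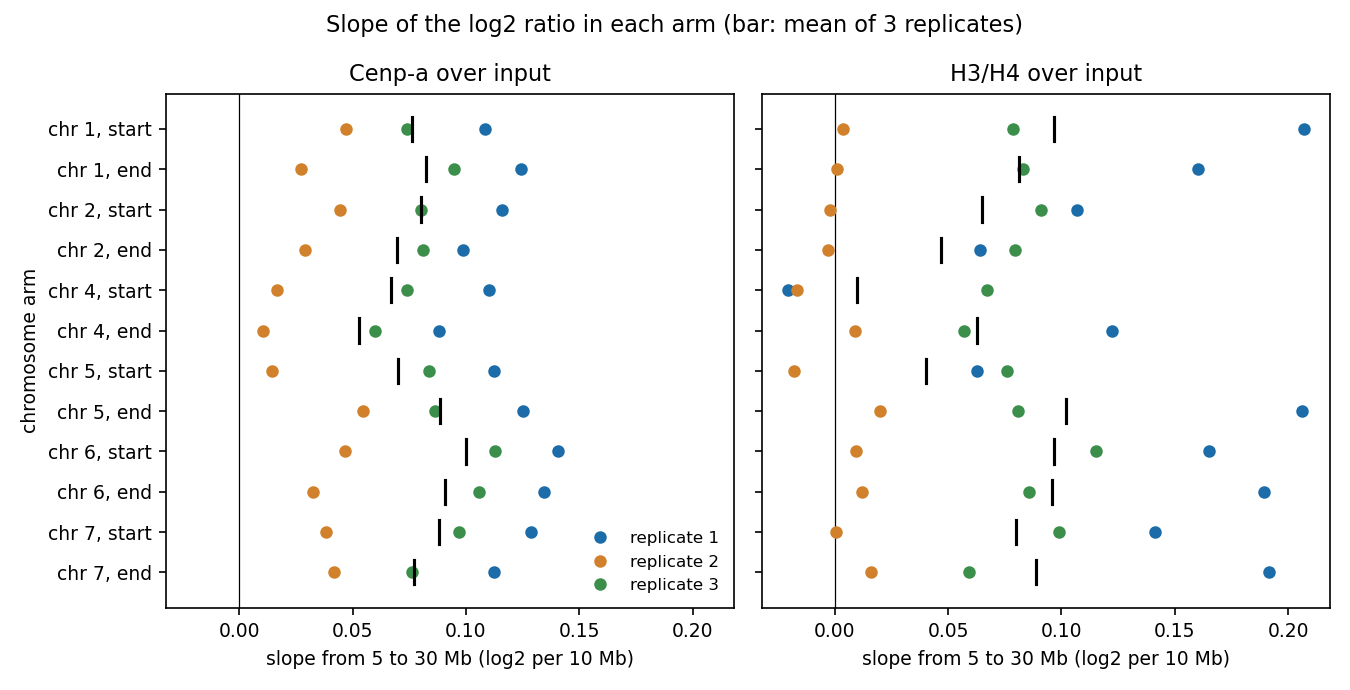
Slope of the log2 ratio with distance (x axis, log2 units per 10 Mb) on the 12 distal arms (y axis), for Cenp-a over input and H3/H4 over input, with 1 point per replicate and a bar at their mean. Every point of Cenp-a over input lies right of 0, with replicate 1 highest and replicate 2 lowest, while some points of H3/H4 over input lie left of it.

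Against its neighbours on the same chromosomes, Cenp-a over input in the distal arms was intermediate. The median was -0.070 ± 0.024 over the distal arm bins, against 0.051 ± 0.043 over the 64443 central bins (over 30 Mb from both ends) and -0.232 ± 0.110 over the 4800 bins at 1 to 5 Mb (SD, n = 3 each). The distal arms were below the central bins by -0.178, -0.048 and -0.136 in replicates 1, 2 and 3 and above the 1 to 5 Mb bins by 0.241, 0.070 and 0.173, and both exact two-sided sign-flip tests gave p = 0.25, the smallest value possible. H3/H4 over input was likewise lower than in central bins in all 3 replicates (-0.185, -0.011 and -0.117; p = 0.25 by the same exact test), but its difference from the 1 to 5 Mb bins changed sign in replicate 2 (0.179, -0.024 and 0.173; exact p = 0.5). IgG over input differed from central bins by a mean of 0.026 ± 0.036 (SD, n = 2).

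Single bins were tested with edgeR's quasi-likelihood test on the raw counts over all bins of the table, with Benjamini-Hochberg adjustment, and called at an adjusted p under 0.05. Of 29934 distal arm bins tested for Cenp-a against input, 2071 were lower (6.92%) and 493 higher (1.65%). Over all 144711 bins tested, 5.47% were lower and 3.81% higher, so that the distal arms held more lower bins and fewer higher bins than the table as a whole. The share of lower bins was 14%, 10.6%, 5.02%, 2.92% and 2.04% in the 5 bands from 5 to 10 Mb to 25 to 30 Mb, and the share of higher bins was 0.819%, 1.02%, 1.57%, 2.50% and 2.32%. The changes were small, since 6 bins were at least 2-fold lower and 8 at least 2-fold higher (background 0.0173% and 0.0898%), and 0 and 2 bins at least 5-fold (background 0.000691% and 0.0532%). DESeq2 called 388 distal arm bins lower and 128 higher, and gave no adjusted p for 10630 of the 30000. With 1 replicate left out, edgeR called between 322 and 4174 lower and between 111 and 966 higher, the most without replicate 2 and the fewest without replicate 3. Shares over all bins are not given for DESeq2 or with a replicate left out.

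**Figure D3:**
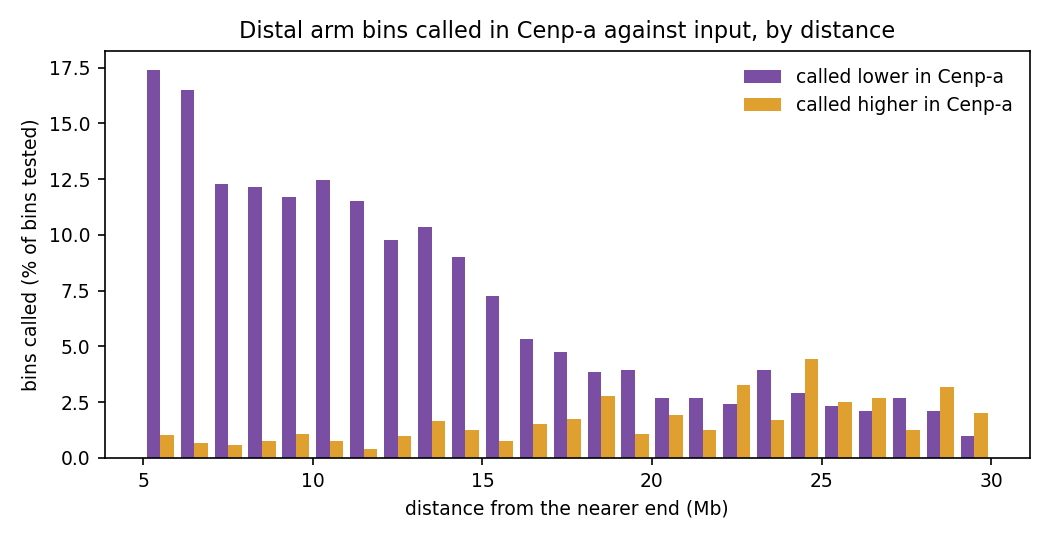
Share of the distal arm bins called for Cenp-a against input (y axis, percent of bins tested) in each 1 Mb of distance from the nearer chromosome end (x axis, Mb), with a bar for lower and a bar for higher calls. Lower calls decline from 14% over 5 to 10 Mb to 2.04% over 25 to 30 Mb, where higher calls, at 2.32%, are as common.

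In windows of 1 Mb, which sum about 100 bins each, the same test called 129 of 300 distal arm windows lower (43.0%) and 3 higher (1.0%), against 21.4% lower and 13.2% higher of the 1458 windows of all chromosomes. The bands from the outer to the inner held 51, 45, 23, 7 and 3 lower windows of 60 each, and 60, 59, 52, 40 and 41 windows had a fold change below 0. Leaving out 1 replicate gave between 27 (without replicate 3) and 194 (without replicate 2) lower windows. The lowest window was 5 to 6 Mb from the end of chromosome 1 (chr1:211467677-212467676), with Cenp-a over input ratios of 0.734, 0.900 and 0.785 in replicates 1, 2 and 3 and a log2 fold change of -0.32 (SE 0.056, edgeR adjusted p = 0.032). In that window H3/H4 over input was 0.757, 0.993 and 0.826, and IgG over input 1.08 and 0.984 in replicates 2 and 3. The highest window was 24 to 25 Mb from the start of chromosome 6 (chr6:24001965-25001964), with Cenp-a ratios of 1.15, 1.10 and 1.12 and a log2 fold change of 0.17 (SE 0.023, edgeR adjusted p = 0.032). H3/H4 over input was raised there too, at 1.18, 1.05 and 1.11, and IgG over input was 0.947 and 1.02 in replicates 2 and 3. The window holds 18 annotated genes, 14 of them protein-coding.

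The control comparisons gave few calls of single bins, but in the main fit H3/H4 against input gave a share of lower windows above background. For H3/H4 against input, edgeR called 1 distal arm bin lower and 0 higher (background 0.00415% in each direction). At an unadjusted edgeR p under 0.05, 3239 were lower and 1209 higher, with no share over all bins given at that threshold. DESeq2 called 22 lower and 0 higher, but gave no adjusted p for 28736 of the 30000 distal arm bins. In windows edgeR called 38 of 300 lower (12.7%) and 0 higher (background 6.52% and 1.17%). Of the lower windows 23 lay at 5 to 10 Mb and 12 at 10 to 15 Mb. Their number depended on the setting: 0 were called lower without the replicate block, with TMM scaling, without replicate 1 or without replicate 3, and 80 without replicate 2. Without replicate 2 the bins called were 1529 lower and 387 higher. No background is given for these alternative settings. For IgG against input 0 bins were called either way (background 0.00207% lower and 0% higher; 122 lower and 151 higher at an unadjusted edgeR p under 0.05). No window was called for IgG (background 0.0686% lower and 0% higher; 1 lower and 2 higher at an unadjusted p under 0.05). DESeq2 also called 0 bins either way for IgG, which has 2 replicates.

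Cenp-a against H3/H4 separated the bins in which Cenp-a exceeded bulk histones. With edgeR 22 distal arm bins were higher and 1 lower (background 0.126% and 0.0076%), of which 2 were at least 2-fold higher (background 0.0622%) and 0 at least 2-fold lower (background 0%). In windows 1 was higher and 3 lower (background 0.823% and 2.67%). The lower bin, at chr1:211547677-211557676, 5.92 Mb from the end, had 4.19, 3.91 and 4.83 CPM in Cenp-a against 6.04, 6.61 and 6.53 CPM in H3/H4 (log2 fold change -0.54, SE 0.125, edgeR adjusted p = 0.037), and the call was lost with TMM scaling (edgeR adjusted p = 0.0555) and with DESeq2's size factors (edgeR adjusted p = 0.0540).

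A pair of neighbouring bins on the start arm of chromosome 4 stood apart. The bin chr4:17721474-17731473 had 88.5, 56.5 and 76.1 CPM in Cenp-a replicates 1, 2 and 3, against 19.6 CPM in H4, 15.7 and 18.5 CPM in H3, 15.6 and 15.5 CPM in IgG, and 12.8, 14.2 and 15.6 CPM in input. Each Cenp-a library was thus above every control library, with ratios to input of 6.85, 3.95 and 4.84. The log2 fold change was 2.36 against input (SE 0.119, edgeR adjusted p = 5.92e-14) and 2.03 against H3/H4 (SE 0.0954, adjusted p = 7.96e-30). The bin before it, chr4:17711474-17721473, had 78.7, 62.1 and 79.7 CPM in Cenp-a against 12.2, 17.0 and 14.6 CPM in input (log2 fold change 2.35, SE 0.121, edgeR adjusted p = 9.68e-14). These are the 2 bins past 5-fold. Both lie within the limits of LOC108647437, a protein-coding gene without a name at chr4:17698799-17758651, and the gene table used here does not give its exons. The input was raised in both, to between 2.18 and 2.61 times the median bin in the first and between 2.07 and 2.83 times in the second. Reads of any mapping quality were counted, and whether these reads are unique to this place was not tested.

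The rise was limited to these 20 kb. The bin on the near side, chr4:17701474-17711473, had Cenp-a over input ratios of 0.884, 0.918 and 0.970, and the one on the far side, chr4:17731474-17741473, ratios of 1.18, 1.2 and 1.05, although both lie in the same gene. H3/H4 and IgG were not called in either of the 2 high bins.

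The next bins in size overlapped single genes, with lower folds. The bin chr6:9430492-9440491 covers higd1a (chr6:9431655-9438903), which codes for a mitochondrial protein induced by hypoxia. It had 18.3, 11.1 and 11.1 CPM in Cenp-a and 3.51, 5.54 and 5.29 CPM in input, with a log2 fold change of 1.5 (SE 0.270, edgeR adjusted p = 0.024). Against H3/H4, at 9.94 CPM in H4 and 6.13 and 6.04 CPM in H3, the difference was 0.87 (edgeR adjusted p = 1.03e-08), and it was lost without the replicate block (edgeR adjusted p = 1.00). The bin chr4:7310492-7320491 covers adm (chr4:7313777-7316996), the gene of the vasodilator peptide adrenomedullin. It had 25.8, 14.7 and 15 CPM in Cenp-a and 7.95, 7.68 and 7.63 CPM in input, so that Cenp-a and input did not overlap (log2 fold change 1.23, SE 0.116, edgeR adjusted p = 7.69e-08). Cenp-a and H3/H4 did overlap, since H4 had 15.7 CPM, above Cenp-a replicates 2 and 3, and H3 had 9.80 and 8.08 CPM. Against H3/H4 the difference was 0.74 (edgeR adjusted p = 2.93e-07).

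The bin chr6:16630983-16640982 overlaps insig1 (chr6:16635760-16649463), which codes for a protein of the endoplasmic reticulum that holds back sterol synthesis when sterols are plentiful, and the long noncoding RNA gene LOC116411505 (chr6:16630313-16635587). It had 12.6, 8.03 and 8.53 CPM in Cenp-a against 3.65, 4.43 and 4.67 CPM in input (log2 fold change 1.19, edgeR adjusted p = 3.75e-06) and was also higher than H3/H4, by 0.85 (adjusted p = 2.25e-07). Next came chr7:127080312-127090311 in LOC108644477 (1.10) and chr6:24601965-24611964 in armc4 (1.05), a gene needed for the dynein arms of cilia. In these 5 bins and in the higher bin of the pair on chromosome 4, replicate 1 had the highest Cenp-a value, while in the other bin of the pair it was replicate 3.

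The bins with the largest fall in Cenp-a against input were mostly thinly covered and free of genes. The bin chr2:155112767-155122766, with no annotated gene, had 16, 1 and 84 counts in Cenp-a against 56, 49 and 69 counts in input, or 0.299, 0.0737 and 0.366 CPM against 0.941, 1.15 and 0.882 CPM (log2 fold change -1.57, SE 0.308, edgeR adjusted p = 0.0020). Better covered was chr7:123230312-123240311, also without a gene, with 5.82, 3.98 and 3.97 CPM in Cenp-a against 13.8, 7.96 and 8.14 CPM in input (log2 fold change -1.11, edgeR adjusted p = 9.46e-08). Its call was lost without the replicate block (edgeR adjusted p = 0.104). The bin chr5:26181965-26191964 (-1.18, edgeR adjusted p = 1.25e-05) had 10.1 CPM in input replicate 1 against 4.78 and 5.47 CPM in the other inputs, with 3.11, 2.80 and 2.95 CPM in Cenp-a, and was likewise lost without the block (edgeR adjusted p = 0.0765). The others were chr1:198556695-198566694 in spef2 (-1.13), a gene of the sperm flagellum, chr7:111699330-111709329 (-1.07) and chr5:156913258-156923257 (-1.06). The calls in spef2 and on chromosome 5 at 156913258 were lost without replicate 1 (edgeR adjusted p = 0.0614 and 0.281). None of these 6 was called against H3/H4, where 0.0076% of all bins tested were called lower. H3/H4 was below input in all 6 as well, though not called. Its log2 fold changes were -0.99, -0.73, -0.71, -1.27, -0.55 and -0.70 in the order named. Cenp-a against H3/H4 was 0.20 in the bin in spef2 and between -0.60 and -0.19 in the others.

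Higher calls were more frequent over genes, as a description of these bins, since bins are not independent replicates. Of the 18267 tested bins that overlap an annotated gene, 2.24% were higher and 6.25% lower, against 0.711% and 7.96% of the 11667 that overlap none. Genes overlap 61.0% of the distal arm bins, 83.2% of the higher and 55.1% of the lower bins. The share of higher bins was 4.69% of the bins with 3 or more protein-coding genes (64 bins), 2.47% with 2, 2.28% with 1 and 0.723% with none, and that of lower bins 3.13%, 4.70%, 6.24% and 8.04%. The gradient itself was present in both kinds of bin. Its mean slope was 0.082 per 10 Mb over bins with a gene and 0.072 over bins without.

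Ribosomal protein genes, which code for the protein parts of the ribosome and are among the most transcribed genes of a growing cell, had the largest share of calls among the gene groups considered. The distal arms hold 14 of the 76 annotated ones, in 22 bins, and 13 of the 22 bins (59.1%) were called higher for Cenp-a against input, with 0 called lower, beside a background of 3.81% of all bins higher. At least 1 bin was called for 12 of the 14 genes. The median log2 fold change of the 22 bins was 0.37, against -0.08 over all distal arm bins tested. The ratio exceeded 1 in all 3 replicates in 18 bins, a count that has no share over all bins beside it. Elsewhere on the chromosomes 60 of 96 bins with such genes were higher and 0 lower.

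The highest was the bin of rpl32, chr4:131830803-131840802, with ratios of 2.07, 1.5 and 1.6 in replicates 1, 2 and 3 (log2 fold change 0.80, edgeR adjusted p = 7.71e-05). It was followed by rps7 (0.62, with ratios of 1.80, 1.33 and 1.42), rps27a (0.52), rps3 (0.51), rps9 (0.50), rplp1 (0.49) and rpl30 (0.48). The 2 genes with no bin called were rpl37 (0.27) and rpl29 (0.30 and 0.21). For rps3, rpl18, rps19, rps27a, rpl17 and rpl21, 1 of the 2 bins of the gene was called and the other not. A second protein-coding gene overlaps 13 of the 22 bins, and at 10 kb its part in the value cannot be told apart from that of the ribosomal protein gene. The genes with a call lie at all depths of the arms, between 7.67 Mb (rplp1) and 28.7 Mb (rps7) from the end.

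The excess over ribosomal protein genes was smaller against bulk histones. Against H3/H4 the median log2 difference was 0.13 (-0.02 over all distal arm bins), and 0 of the 22 bins were called (background 0.126% higher and 0.0076% lower). H3/H4 against input gave a median of 0.19 (-0.05 over all distal arm bins) and 0 calls (background 0.00415% in each direction). With backgrounds this low, 0 calls among 22 bins cannot set these bins apart. The number of bins higher in Cenp-a than in input was 13 under each alternative scaling, with no filter and without the replicate block, 8 by DESeq2, and 3, 16 and 4 without replicate 1, 2 or 3.

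**Figure D4:**
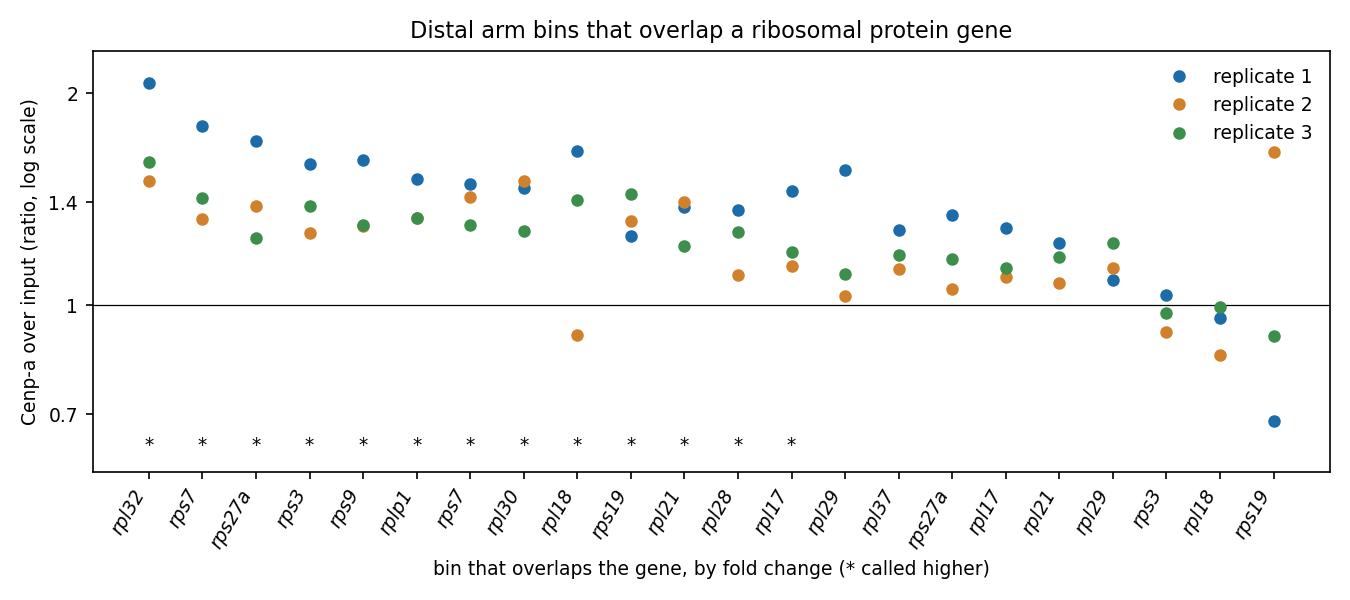
Cenp-a over input (y axis, ratio on a log scale) in the 22 distal arm bins that overlap a ribosomal protein gene, ordered by fold change along the x axis, with 1 point per replicate and a star on the 13 bins called higher. The bin of rpl32 is highest, with 2.07, 1.5 and 1.6 in replicates 1, 2 and 3. All 3 points are above 1 in 18 of the bins, and no share over all bins is given for that count.

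The other gene groups had between 0 and 7 higher and between 0 and 6 lower bins each, and their shares, which rest on few bins, are set beside 3.81% higher and 5.47% lower of all bins tested. Of the 7 bins with histone genes 1 was higher (14.3%) and 0 lower. It overlaps h2ac7 (chr6:5100001-5110000, log2 fold change 0.56, edgeR adjusted p = 0.0023) but holds 5 protein-coding genes, whose parts in the value cannot be told apart. Of the 115 bins with zinc finger genes 7 were higher (6.09%) and 4 lower (3.48%). Of the 34 bins with cytochrome P450 genes, whose enzymes oxidize steroids, retinoids and foreign compounds, 0 were higher and 3 lower (8.82%). Of the 50 bins with transfer RNA genes 2 were higher (4.0%) and 6 lower (12%), while elsewhere on the chromosomes 54 of 363 were higher and 15 lower. The only protocadherin gene in the distal arms, pcdh15, had 1 higher and 0 lower of its 72 bins, and olfactory receptor genes had 0 either way of 3. Hox and keratin genes have no member in the distal arms.

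The input itself was uneven along 3 of the arms, which bears on every ratio taken over it. In 10 of the 300 windows the median input level was at least 1.5 times the median bin in all 3 input libraries, and in 3 it was at least 1.5 times below it, a definition chosen after the levels had been seen. The raised windows are the 5 at 5 to 10 Mb from the end of chromosome 2 and 5 on the start arm of chromosome 4, and the reduced ones are 3 of the windows between 5 and 9 Mb from the end of chromosome 5. The outer 5 Mb of the end arm of chromosome 2 (chr2:171024240-176024730) had 2.25, 2.16 and 2.12 times the median bin in Cenp-a, 2.34 times in H4 and 2.33 and 2.10 times in H3, 2.35 and 2.31 times in IgG, and 2.58, 2.32 and 2.33 times in input. Next to it, at 11 to 16 Mb (chr2:165023749-170024239), the levels were 0.907, 0.904 and 0.894 times in Cenp-a and 1.03, 0.981 and 0.988 times in input. Every library thus stepped by over 2-fold in the same place, and the cause was not tested.

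**Figure D5:**
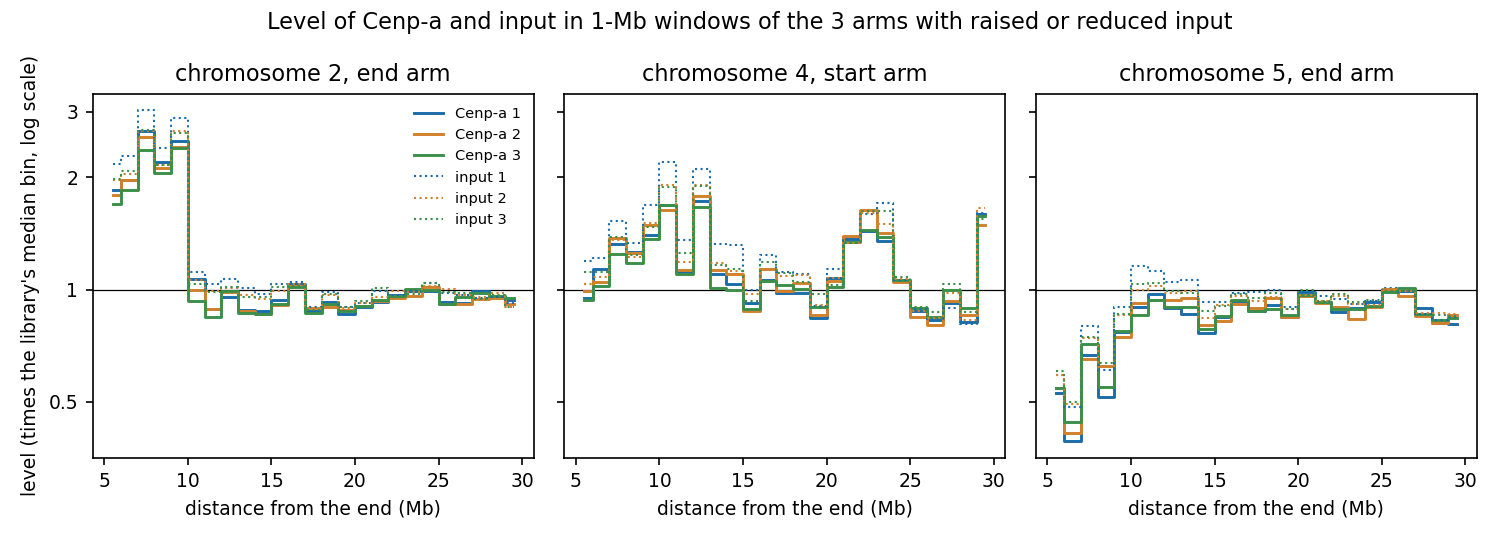
Median level of the distal arm bins in windows of 1 Mb (y axis, times the median bin of the library, log scale) by distance from the chromosome end (x axis, Mb). The panels show the end arm of chromosome 2, the start arm of chromosome 4 and the end arm of chromosome 5, with 1 line for each Cenp-a and each input library. These libraries run together: on chromosome 2 their medians over 5 to 10 Mb are above 2, with levels near 1 further in, and on chromosome 5 their medians over the outer 5 Mb are below 1.

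The ratio was similar on both sides of the step on chromosome 2. Cenp-a over input was -0.135 ± 0.065 in the raised stretch and -0.141 ± 0.051 at 11 to 16 Mb (SD, n = 3 each). These stretches also differ in distance from the end, so an effect of the step cannot be told apart from the gradient. On the end arm of chromosome 5 the outer 5 Mb (chr5:154022767-159023257) had 0.573, 0.604 and 0.582 times the median bin in Cenp-a and 0.669, 0.652 and 0.652 times in input, with a ratio of -0.170 ± 0.045 (SD, n = 3). The slope of Cenp-a over input was 0.079 per 10 Mb with and without the 13 windows, and that of the input level moved to -0.055 without them. Single bins with high input were called lower more often. Of the 1316 bins at 2 or more times the median bin in any input library, 28.9% were called lower in Cenp-a, against 5.91% of the others. These bins were chosen by the input, the denominator of the ratio, and this choice by itself favours lower calls. Their higher counts also make calls easier, so no conclusion is drawn from the difference. Without the 13 windows, 14.2% of the bins at 5 to 10 Mb were still called lower.

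The bins with the highest input included 2 that hold several small RNA genes. The highest, chr2:10590492-10600491, with 2 genes each of trnai-aau and trnad-guc, transfer RNA genes, reached between 23.9 and 34.6 times the median bin in the inputs, with 151, 137 and 134 CPM in Cenp-a and 205, 149 and 145 CPM in input. It was not called (edgeR adjusted p = 0.23). The next, chr1:191416204-191426203, holds 9 small nuclear RNA genes and had 140, 123 and 123 CPM in Cenp-a and 181, 140 and 143 CPM in input. In chr7:106608839-106618838, within the long noncoding RNA gene LOC116412469, Cenp-a was lower, at 74.0, 87.4 and 72.7 CPM against 147, 99.5 and 111 CPM in input (log2 fold change -0.60, SE 0.124, edgeR adjusted p = 0.0029). Reads of any mapping quality were counted, and whether the reads in these bins also match other places was not tested.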

How the data were processed

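The 11 libraries were sequenced as read pairs. Per the labels and the study's methods, the authors used Trimmomatic 0.39 for trimming, minimap2 2.17-r941 for alignment to the unmasked v10 genome and SAMtools 1.9 for sorting, and deposited raw counts per 10-kb bin from deepTools 3.3.0, at any mapping quality. A removal of duplicate reads is not given in the sources used here.

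The deposited counts were used as they stand, with the total count on the 10 chromosomes as library size. Chromosome numbers were checked against the last RefSeq gene of each chromosome (UCB_Xtro_10.0, largest difference 182731 bp), and 28773 genes of that table gave the annotations. Bins that reached 10 counts in 50% or more of the libraries of a comparison, and the 1458 windows of 1 Mb, were tested with edgeR 4.0.16 (R 4.3.3, glmQLFit with robust estimation, glmQLFTest), with replicate as a blocking factor, because each ChIP library was set against the input of its own replicate in the study. P-values were adjusted over all bins or windows. Shares over all bins or windows are given for the main edgeR fit only. Counts at an unadjusted p or under other settings have no background beside them. The comparisons with input share the input libraries, and those of Cenp-a share the Cenp-a libraries. Standard errors came from the same fits. Ratios had 0.1 CPM added to both values, and replicates, never bins, entered the exact sign-flip tests. The scripts were tested on simulated data. The members and gene groups were chosen with earlier results of these data known. Named bins were the 6 largest changes each way for Cenp-a against input with the same sign in all replicates and up to 3 each way against H3/H4 and for H3/H4 against input, with bins within 200 kb counted once, plus each bin past 5-fold and the 4 with the highest input. Named windows were the 3 highest and the 3 lowest. Alternatives were DESeq2 1.42.0, TMM and DESeq2 size factors, no filter, no block, fold minima, other pseudocounts, bin subsets and leaving out each replicate or chromosome. No genome sequence was used here, so no sequence, GC content or mappability is given.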

Additional observations from a re-analysis of the deposited data

How the results depend on the processing

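The slopes of Cenp-a over input, H3/H4 over input, IgG over input and the input level kept their direction under every alternative run, that of Cenp-a over input lying between 0.068 (1 CPM added) and 0.094 (5 to 20 Mb) per 10 Mb, or between 0.061 and 0.101 with 1 replicate left out. The slope of Cenp-a over H3/H4 turned to -0.0019 over bins that overlap no gene, to -0.0046 over 5 to 20 Mb and ran between -0.0041 and 0.019 with 1 replicate left out. The cause was not tested. Leaving out the windows of raised or reduced input, an alternative chosen after seeing the data, turned no slope.

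Counts of calls depended far more on the setting. Apart from the fold minima, the alternative settings have no share over all bins beside them. For Cenp-a against input DESeq2 called 128 higher and 388 lower bins, with no adjusted p for 10630 of the 30000 distal arm bins. Of the 2564 bins that edgeR called, DESeq2 called 516 and did not call 1492, and 556 got no adjusted p from it. At least 2-fold left 8 higher and 6 lower, and at least 5-fold 2 and 0. Without 1 replicate, higher bins ran from 111 to 966 and lower bins from 322 to 4174, and 1-Mb windows from 0 to 17 higher and 27 to 194 lower. Windows called higher were 7 without the replicate block and 5 without high-input bins.

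For Cenp-a against H3/H4 the higher bins were 13 by DESeq2, 3 without the replicate block, 2 at 2-fold and 0 at 5-fold, and the lower ones 0 by DESeq2, with TMM or DESeq2 size factors, without the block and at 2-fold or 5-fold. In this comparison DESeq2 gave no adjusted p for 26760 of the 30000 distal arm bins. Leaving out 1 replicate gave 13 to 24 higher and 0 to 4 lower bins. Of the windows, 0 were called higher with TMM factors, without the block and without high-input bins, and 0 lower without the block or with TMM factors. Without 1 replicate they were 1 to 2 higher and 0 to 9 lower. For H3/H4 against input the lower bins were 22 by DESeq2 and 0 with TMM or DESeq2 size factors, without the block and at 2-fold or 5-fold. Here DESeq2 gave no adjusted p for 28736 of the 30000 distal arm bins, so its count cannot be set directly beside those of edgeR. Without 1 replicate, 4 to 387 bins were higher and 8 to 1529 lower, the most without replicate 2. The 38 lower windows became 0 without the replicate block and also with TMM factors, and 0 to 80 without 1 replicate, with 0 to 3 higher. The causes were not tested.

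The replicate block follows the study, but the numbers pair Cenp-a with H3/H4 better than with input. Deviations from the group means over distal arm bins correlated at 0.203, 0.164 and 0.147 between Cenp-a and H3/H4 of replicates 1, 2 and 3, and at 0.152, -0.012 and 0.125 between Cenp-a and input. Libraries of unlike replicate number gave -0.174 to -0.017 for Cenp-a and H3/H4, and -0.186 to 0.110 for Cenp-a and input. H3/H4 and input gave 0.167, -0.041 and 0.135 at like numbers and -0.241 to 0.165 at unlike ones. Deviations from a group mean cancel out over the replicates of a bin. Positive values at like numbers thus push those at unlike numbers down, so the contrast between them is partly built in. For Cenp-a against input the block moved no bin count beyond 1.5 times. Of the single bins named, 15 values under alternatives were no longer called and none turned its sign. Leaving out an IgG replicate was run for the slope and not for the calls, since 1 replicate would be left. The shallowest library, IgG replicate 2, held a median of 23 counts in a distal arm bin and limits what the IgG comparison can show.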
